A study of Mus musculus with 4 samples.

Results

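Described here are 10 genes, 8 that the glucocorticoid receptor is known to switch on (Fkbp5, Tsc22d3, Sgk1, Dusp1, Per1, Klf9, Zbtb16 and Tat) and the metallothioneins Mt1 and Mt2. The genes were chosen by symbol, and all 10 were found among the 78028 rows of each count table. The tables come from 4 cultures labelled hepatocyte-like cells, independent cultures of E14TG2a, a line of mouse embryonic stem cells, kept in an advanced hepatic-inducing cocktail (A-HIC). The 4 libraries, called 1 to 4 after their replicate numbers, form a single group without an untreated or undifferentiated control. Whether the cocktail holds a glucocorticoid or added metal is not given in the sources used here. All 4 cultures derive from the same cell line, so the errors are spreads between cultures and not between animals.

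Glucocorticoids are steroid hormones that cross the cell membrane and bind a receptor held ready in the cytosol by the chaperone Hsp90. The bound receptor enters the nucleus and activates genes near its response elements, among them its own brake Fkbp5 and, in the liver, enzymes of amino acid breakdown such as Tat. Metallothioneins are small cysteine-rich proteins that bind zinc, copper and cadmium. Their genes respond to metals through the factor Mtf1 at metal response elements, and also to glucocorticoids, and both are abundant in fetal liver.

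Libraries 1 to 4 held 37.8, 40.2, 29.5 and 40.1 M counts. The label was checked against marker genes. Of the hepatocyte markers with a length, 2 of 14 (Ttr and Trf) were expressed, meaning 1 TPM or more in all 4 libraries. This held for 9 of 9 pluripotency, 9 of 9 parietal endoderm, 8 of 8 visceral endoderm and 8 of 8 fibroblast markers. It also held for 5 of 6 endothelial, 4 of 6 neural and 3 of 6 leukocyte markers. By the same rule 63.3% of all protein-coding genes were expressed. Cyp7a1 and Fabp1, defining genes of hepatocytes, were listed at 0 counts throughout. The values below therefore belong to the libraries labelled hepatocyte-like. TPM is a level scaled for gene length and library size. In bulk RNA, fewer cells expressing a gene and less RNA per cell cannot be told apart.

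Promoter stretches of 4 of the genes are shown because their letters carry elements of the pathways described. The sequences are from RefSeq (GRCm38.p6), which holds windows for 9 of the 10 genes. They run 5′ to 3′ on the gene's strand and end at the annotated start of transcription, or earlier where GENCODE M21 places an exon of the gene. In Mt1 and Mt2 the capitals mark metal response element letters (TGCACNC or TGCGCNC, either strand), in Sgk1 the full glucocorticoid response element (AGAACA and TGTTCT with any 3 bases between them), and in Dusp1 the cyclic AMP response element TGACGTCA.
Mt1, chr8:94178839-94179081, plus strand: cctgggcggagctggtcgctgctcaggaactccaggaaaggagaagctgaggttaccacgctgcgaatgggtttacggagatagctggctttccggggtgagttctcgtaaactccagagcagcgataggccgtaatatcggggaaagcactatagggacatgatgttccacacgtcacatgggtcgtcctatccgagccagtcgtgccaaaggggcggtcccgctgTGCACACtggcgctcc
Mt2, chr8:94172368-94172617, plus strand: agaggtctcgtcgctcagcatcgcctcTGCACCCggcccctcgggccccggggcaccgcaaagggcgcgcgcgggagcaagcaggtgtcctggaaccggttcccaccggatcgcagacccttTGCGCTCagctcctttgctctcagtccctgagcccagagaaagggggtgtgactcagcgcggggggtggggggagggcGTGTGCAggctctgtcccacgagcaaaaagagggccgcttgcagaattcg
Sgk1, chr10:21993640-21993889, plus strand: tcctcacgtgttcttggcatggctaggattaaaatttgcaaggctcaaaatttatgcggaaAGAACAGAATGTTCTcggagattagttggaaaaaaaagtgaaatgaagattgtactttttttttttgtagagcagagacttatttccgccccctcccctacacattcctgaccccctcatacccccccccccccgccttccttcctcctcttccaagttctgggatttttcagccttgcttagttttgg
Dusp1, chr17:26508520-26508722, minus strand: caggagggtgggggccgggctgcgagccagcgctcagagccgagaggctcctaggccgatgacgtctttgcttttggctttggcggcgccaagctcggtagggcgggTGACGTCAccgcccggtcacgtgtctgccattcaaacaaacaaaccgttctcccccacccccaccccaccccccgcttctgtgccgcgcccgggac

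The Mt2 stretch held 3 metal response element matches and the Mt1 stretch 1. Across 32851 RefSeq windows of the same 250 bases, 21.4% held at least 1 such match and 1.26% held 3 or more. Matches also lay past the annotated start: the first 200 bases of the principal transcript held 4 in Mt1 and 3 in Mt2. Where transcription starts in these cultures was not examined, so matches past the annotated start may still lie in the promoter. Of 19880 protein-coding transcripts, 0.156% held 4 or more in those bases and 0.885% held 3 or more. The full glucocorticoid element was found in 1 of the 6 Sgk1 windows and in 0.00913% of all windows (3 of 32851). The inner letters of that element, ACANNNTGT, searched separately on both strands and contained in it, were in Mt1 and Sgk1 and in 5.84% of all windows. The cyclic AMP element TGACGTCA was in Dusp1 alone among the 9 genes with a window and in 1.55% of all windows. These are letter matches in short windows and do not show binding.

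Expressed in all 4 libraries were 9 of the 10 genes, which is also the case for 63.3% of protein-coding genes. This share is also the background for the counts of expressed genes in each list below. Mt1 had the highest level and Tat the lowest. From the highest, the mean TPM followed the order Mt1, Klf9, Sgk1, Fkbp5, Tsc22d3, Dusp1, Per1, Mt2, Zbtb16 and Tat. The 10 genes made up 0.112% ± 0.0109 of all counts (SD, n = 4), and Mt1 alone 0.0313% ± 0.00461. Neighbours in this order whose 4 values overlapped were Sgk1 and Fkbp5, Tsc22d3 and Dusp1, Dusp1 and Per1, and Mt2 and Zbtb16. The ranges of the other neighbours did not overlap. The order depends on the gene lengths used, and with principal transcript lengths Fkbp5, Sgk1 and Klf9 stood at 167, 144 and 141 TPM, in that order.

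**Figure D1:**
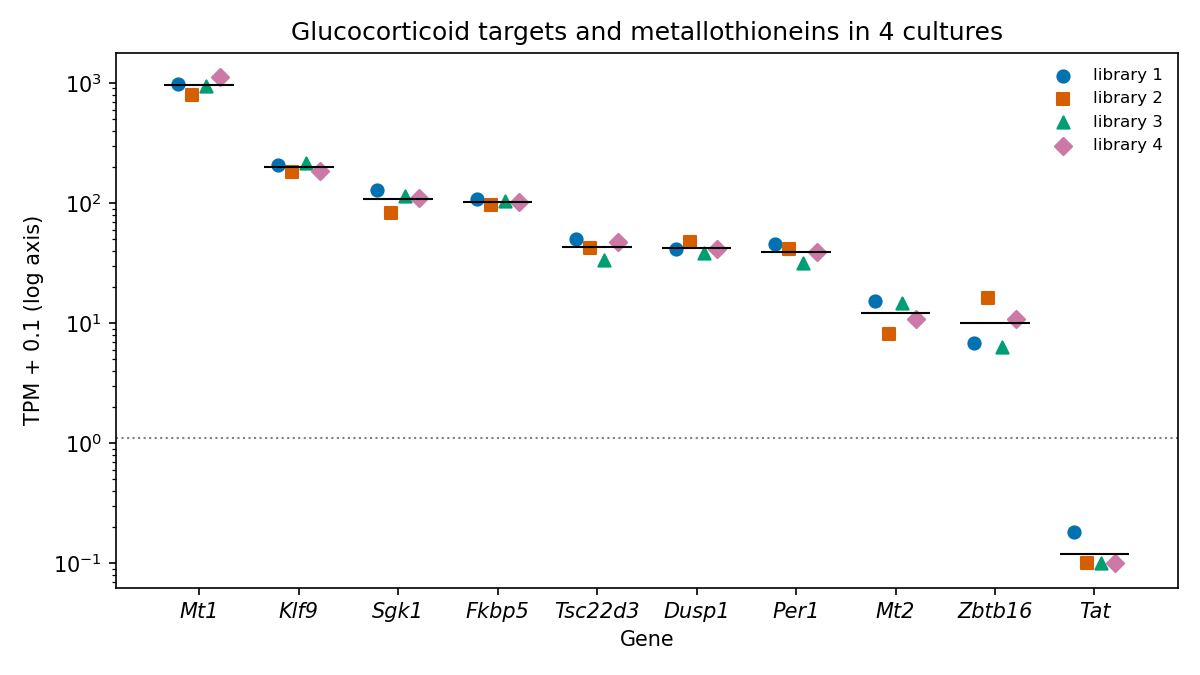
Level of each gene in TPM + 0.1 (log axis) in the 4 libraries, with symbols for libraries and a bar for the mean. The dotted line marks 1 TPM. Mt1 lies between 798 and 1114 TPM, and Tat is the only gene below the line.

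Fkbp5 encodes an immunophilin that joins the receptor's Hsp90 complex and lowers its affinity for hormone. Its level was 107, 95.3, 104.5 and 102 TPM in libraries 1 to 4, a mean of 102 ± 4.98 TPM (SD, n = 4). In TPM these values lay closer together than those of the other 8 expressed genes, with a highest-to-lowest fold of 1.12. On the log2(CPM + 1) scale (CPM are counts scaled to library size alone) Dusp1 varied less, with an SD of 0.0982 against 0.118. Over 10064 genes at a mean of 10 CPM or more the median SD was 0.149. The biological coefficient of variation that edgeR estimated for Fkbp5 was 0.105, against a median of 0.185 over 17398 genes. That median spans genes of differing levels and was not matched to the level of Fkbp5. Fkbp5 was at a lower level than Fkbp4, the immunophilin that carries the active receptor to the nucleus, which stood at 594 ± 30.5 TPM. The log2 ratio of Fkbp5 to Fkbp4 was -2.51, -2.54, -2.58 and -2.51 per library, a mean of -2.54 ± 0.0354. Its sign was the same in 4 of 4 libraries (exact sign-flip permutation test, two-sided, p = 0.13, the smallest p that 4 libraries allow). In all, 10 pairs of related genes were compared in this way, and with 4 libraries none could reach 0.05, with or without adjustment over the pairs. With the length of the principal transcript in place of all exons together, the mean ratio was -1.58.

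Tsc22d3, also called Gilz, encodes a leucine zipper protein that carries anti-inflammatory effects of glucocorticoids. It stood at 50.15, 42.3, 33.3 and 47.4 TPM, a mean of 43.3 ± 7.43 TPM, with library 3 the lowest. Library 3 against the others gave a log2 fold change of -0.51 in edgeR's quasi-likelihood test (unadjusted p = 0.0298, adjusted p = 1). Within its family the level of Tsc22d3 was below that of Tsc22d1, by a log2 ratio of -1.64 ± 0.34, and above that of Tsc22d4, by 3.03 ± 0.21. With principal transcript lengths these mean ratios were -2.86 and 3.25. Both orders held in 4 of 4 libraries (exact sign-flip permutation test, p = 0.13 each). Tsc22d1 had a mean of 134 TPM and Tsc22d4 of 5.19 TPM.

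Sgk1 encodes a kinase that acts on ion channels and transporters. Its level was 128, 82.95, 114 and 110 TPM, a mean of 109 ± 18.8 TPM, with library 2 below the other 3. Library 2 against the others gave a log2 fold change of -0.50 (edgeR, unadjusted p = 0.0105, adjusted p = 0.626). The paralogue Sgk3 stood at 5.58 ± 0.302 TPM and Sgk2 at 1.25 ± 0.414 TPM. Sgk1 was above Sgk3 by a log2 ratio of 4.25 ± 0.31, in 4 of 4 libraries (exact sign-flip permutation test, p = 0.13), or 3.34 with principal transcript lengths.

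Dusp1 encodes a phosphatase that inactivates MAP kinases and is also an immediate early gene of growth factors and stress. It stood at 41.4, 47.5, 38.3 and 41.3 TPM, a mean of 42.1 ± 3.87 TPM, highest in library 2. It was not the leading phosphatase of its family. Dusp9 and Dusp4 stood at 203 ± 14.1 and 179.5 ± 52.0 TPM, and Dusp6, which acts on ERK, at 90.4 ± 8.95 TPM. The log2 ratio of Dusp1 to Dusp6 was -1.10 ± 0.15, below 0 in 4 of 4 libraries (exact sign-flip permutation test, p = 0.13), and -0.53 with principal transcript lengths. Of the 10 phosphatases listed, 9 were expressed and Dusp2 was lowest at 0.648 ± 0.357 TPM.

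**Figure D2:**
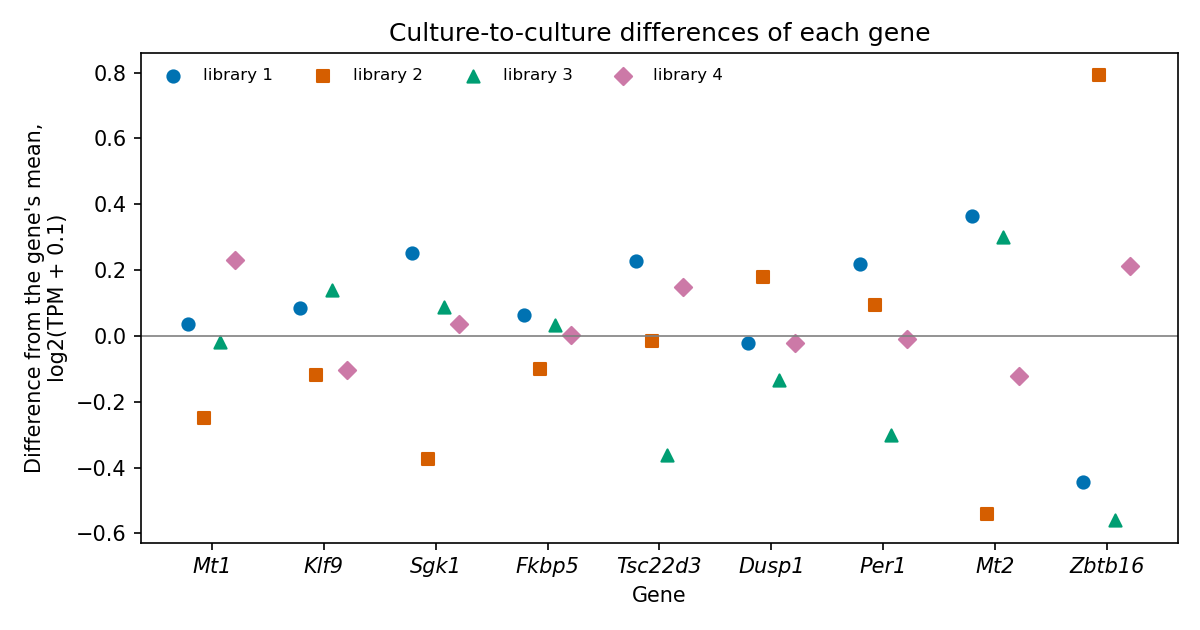
Difference of each library from the gene's own mean on the scale log2(TPM + 0.1) for the 9 expressed genes. Library 2 (square) is the lowest for Mt1, Klf9, Sgk1, Fkbp5 and Mt2 and the highest for Dusp1 and Zbtb16.

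Among the transcription factor and clock genes, Klf9, a zinc finger factor induced by glucocorticoid and thyroid hormone, was the highest. It stood at 209, 182, 217 and 184 TPM, a mean of 198 ± 17.9 TPM. Libraries 1 and 3 were higher than 2 and 4, and no library differed from the others by test (edgeR, lowest unadjusted p = 0.267, adjusted p = 0.700). Its close relative Klf13 stood at 58.8 ± 8.27 TPM, and the log2 ratio of Klf9 to Klf13 was 1.76 ± 0.33, above 0 in 4 of 4 libraries (exact sign-flip permutation test, p = 0.13). In the Klf family, 14 of 17 genes were expressed. Klf5 and Klf4, which pluripotent cells express, were the highest at 240.0 ± 33.3 and 229 ± 29.1 TPM, and Klf1 was the lowest at 0.712 ± 0.464 TPM.

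Per1 is a repressor of the circadian clock that glucocorticoids induce directly. It stood at 45.2, 41.5, 31.5 and 38.6 TPM, a mean of 39.2 ± 5.81 TPM, lowest in library 3. Library 3 against the others gave a log2 fold change of -0.43 (edgeR, unadjusted p = 0.0459, adjusted p = 1). Per2, its partner in the clock, stood at 2.86 ± 0.551 TPM. The log2 ratio of Per1 to Per2 was 4.07, 3.49, 3.71 and 3.68 per library, a mean of 3.74 ± 0.24 (exact sign-flip permutation test, p = 0.13). Of the 19 clock genes listed, 16 were expressed. Cry1, another repressor, and Bhlhe40 were the highest at 65.7 ± 3.82 and 60.2 ± 12.3 TPM.

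Zbtb16, also called Plzf, encodes a zinc finger repressor that steroid hormones induce. It differed most between the cultures: 6.78, 16.1, 6.26 and 10.8 TPM in libraries 1 to 4, a mean of 9.98 ± 4.57 TPM. Library 2 was 2.58-fold above library 3, and the coefficient of variation over the 4 cultures was 45.7%, against 6.19% from counting error if both ends of each read pair were counted. Library 2 against the others gave a log2 fold change of 1.02 (edgeR, unadjusted p = 0.017, adjusted p = 0.626). It passed the adjusted threshold of 0.05 with no filter on low counts (adjusted p = 0.0173), a setting in which 1.19% of genes were called for library 2. It also passed when library 4 was left out, which sets library 2 against 1 and 3 (adjusted p = 0.000244, with 14.4% of genes called). The expressed genes closest to Zbtb16 over the 4 libraries, by Euclidean distance between centred log2(CPM + 1) values among 10064 genes at a mean of 10 CPM or more, were Pmp22, a myelin and membrane protein gene, Gas1, a growth arrest gene, and Hand2os1, a noncoding RNA gene. Their distances were 0.0696, 0.0842 and 0.0930.

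Zbtb16 was highest in library 2 and next highest in library 4. Of 8 lists of cell type markers, the summed levels of 3 (parietal endoderm, fibroblast and hepatocyte) had the same 2 libraries on top in that order. The endothelial sum also had these 2 libraries on top, with library 4 first. The pluripotency, neural and leukocyte sums had them lowest, and the visceral endoderm sum had neither order. The summed TPM of the 9 parietal endoderm markers was 3178, 10190, 3856 and 7795 in libraries 1 to 4, and 8 of the 9 were highest in library 2, as were 30.6% of 14413 genes at a mean of 1 CPM or more. The sum of the 8 fibroblast markers was 1591, 3523, 1370 and 2457 TPM, with 7 of 8 highest in library 2. The sum of the 9 pluripotency markers was 7499, 4050, 6749 and 5097 TPM, with 8 of 9 lowest in library 2, as were 30.3% of all genes. The sum of the 14 hepatocyte markers was 19.9, 70.7, 19.7 and 33.7 TPM, with all 6 that reached a mean of 1 CPM highest in library 2. The remaining sums, in libraries 1 to 4, were 368, 414, 373.5 and 302 TPM for visceral endoderm and 94.8, 86.3, 87.3 and 69.7 TPM for leukocyte markers. They were 76.3, 83.0, 81.1 and 88.5 TPM for endothelial and 139.7, 130.6, 152.5 and 138.8 TPM for neural markers. None of the parietal endoderm, fibroblast or pluripotency markers summed was at 0. The part of cell composition in the differences of Zbtb16 was not tested. Of the 9 expressed genes, 5 (Fkbp5, Sgk1, Klf9, Mt1 and Mt2) were also lowest in library 2, and the other 4 were lowest in library 3, as were 17.8% of all genes.

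Tat encodes tyrosine aminotransferase, the first enzyme of tyrosine breakdown and a classic target of glucocorticoids in hepatocytes. It had 2 counts in library 1 and 0 in libraries 2, 3 and 4. A count of 0 allows up to 3 counts, or 0.120 to 0.159 TPM in those libraries, and 6 counts (0.240 to 0.317 TPM) if both ends were counted. These limits cover counting error only. The rest of the pathway was split: Fah and Gstz1, which act at its end and in other tissues, stood at 41.8 ± 3.54 and 20.5 ± 2.53 TPM. Hpd and Hgd, the enzymes that follow Tat, had at most 2 counts in any library. Tat and Hpd were both under the counting limit, so no ratio was formed.

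Mt1 was the most abundant of these genes, at the 99.6th percentile of protein-coding genes. It stood at 973, 798, 935.5 and 1114 TPM, a mean of 955 ± 129.9 TPM, highest in library 4 and lowest in library 2. No library differed from the others by test (edgeR, lowest unadjusted p = 0.0512 for library 2, adjusted p = 0.626). The exons of Mt1 transcripts in the annotation merge into 1 block of 1246 bases that includes its introns, while its principal transcript has 549 bases. With principal transcript lengths the mean was 1439 ± 196 TPM.

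Mt2 is the neighbour of Mt1 on chromosome 8 and encodes a closely related protein. Its counts were 92, 48, 67 and 66, against 12519, 10090, 9170 and 14448 for Mt1. Mt1 counts were thus 136, 210.2, 137 and 219 times those of Mt2. In TPM, Mt2 stood at 15.2, 8.04, 14.5 and 10.8, a mean of 12.1 ± 3.33 TPM, and the log2 ratio of Mt1 to Mt2 was 6.0, 6.61, 6.0 and 6.68. The mean ratio was 6.32 ± 0.37, or 7.30 with principal transcript lengths, above 0 in 4 of 4 libraries (exact sign-flip permutation test, p = 0.13). The spread of Mt2 between cultures was 27.5%, against 17.1% from counting error if both ends were counted.

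The Mt2 level is uncertain. In GENCODE M21, 432 of its 588 exon bases (73.5%) lie opposite an exon of the antisense gene Gm45774, and the libraries keep no strand. Reads in such a stretch cannot be assigned to either gene, and how they were counted is not given. Gm45774 had 24, 14, 12 and 19 counts. Mt1 has no exon bases in common with another gene. Confusion between the pair by sequence was also measured: the longest run of identical bases in the Mt1 and Mt2 transcripts was 20, and none of the 1292 stretches of 50 bases in Mt1 occurred in another gene's transcript. Of the Mt2 stretches, 45.8% occurred in Gm45774 and in no other gene. The part of the overlap in the low Mt2 count was not tested.

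Over the 4 libraries Mt1 was closest to St14, a membrane protease gene, Ap4m1, an adaptor protein gene, and Tesk1, a kinase gene, at distances of 0.0345, 0.0446 and 0.0630. Mt2 would have taken place 4833 among 10064 genes in likeness to Mt1. The genes closest to Mt2 were Mib2, Cdk2ap2 and Rpap2, at 0.0164, 0.0169 and 0.0255. With 4 libraries, such distances describe the order and size of the differences on the log2(CPM + 1) scale and no more. Mt2 was at 1.2 to 2.43 CPM, below the cut of 10 CPM, where this scale shrinks differences. Its SD was 0.297 on this scale and 0.42 on log2(TPM + 0.1). Mt3 and Mt4, the brain and epithelial metallothioneins, stood at 11.6 ± 3.87 and 11.8 ± 1.38 TPM.

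**Figure D3:**
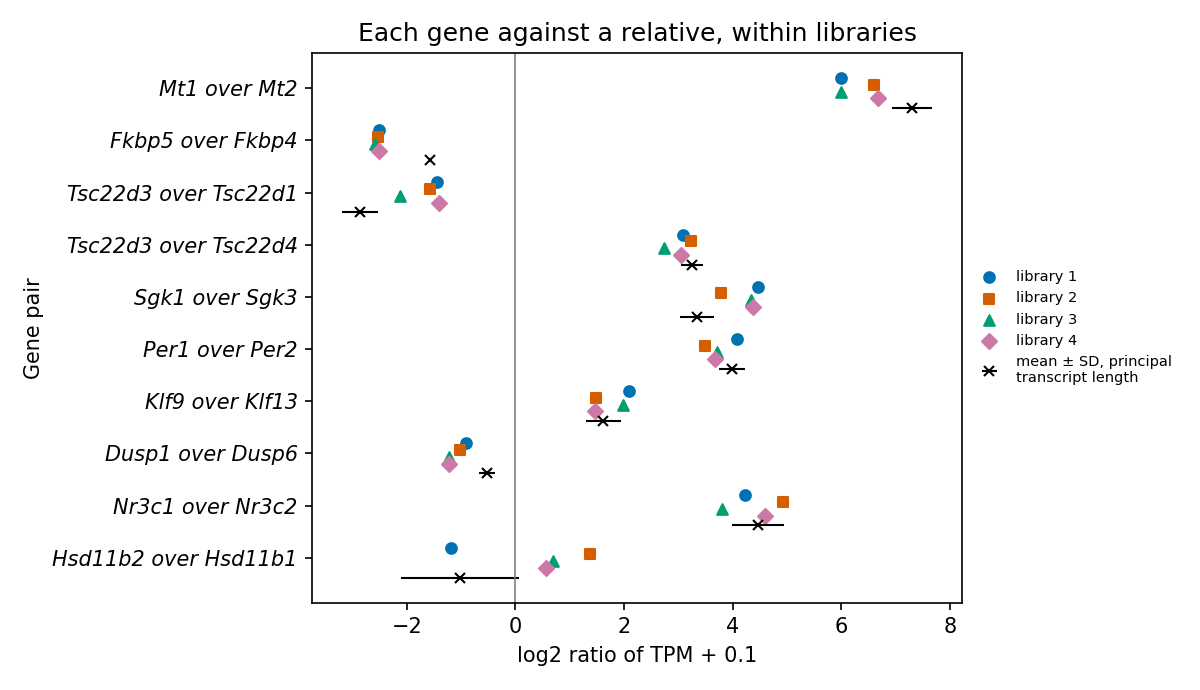
Log2 ratio of TPM + 0.1 for 10 pairs of related genes within each library (symbols), and the mean ± SD over the 4 libraries with principal transcript lengths (crosses). Mt1 over Mt2 is the farthest from 0, and Hsd11b2 over Hsd11b1 is the only pair with values on both sides of 0.

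The receptor itself was expressed. Nr3c1, the glucocorticoid receptor gene, stood at 16.05, 33.1, 19.2 and 25.9 TPM, a mean of 23.6 ± 7.59 TPM. Like Zbtb16, it was higher in libraries 2 and 4 than in 1 and 3. Nr3c2, the mineralocorticoid receptor, which also binds glucocorticoids, stood at 1.00 ± 0.211 TPM and was at or above 1 TPM in library 3 only. The log2 ratio of Nr3c1 to Nr3c2 was 4.39 ± 0.48, above 0 in 4 of 4 libraries (exact sign-flip permutation test, p = 0.13).

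Hormone access is set by a pair of enzymes: Hsd11b1 regenerates active hormone and Hsd11b2 inactivates it. Hsd11b1 stood at 16.6, 17.9, 8.16 and 15.2 TPM, and Hsd11b2 at 7.27, 46.5, 13.2 and 22.4 TPM. Hsd11b2 was below Hsd11b1 in library 1 and above it in the other 3, with a mean log2 ratio of 0.36 ± 1.09 (exact sign-flip permutation test, p = 0.5). The direction of the mean turned with principal transcript lengths (-1.02) and in CPM (-0.84). With principal transcript lengths Hsd11b2 was below Hsd11b1 in all 4 libraries, at 4.81, 30.9, 8.75 and 14.9 TPM against 28.8, 31.2, 14.2 and 26.5 TPM. H6pd, which supplies the cofactor of Hsd11b1, stood at 60.2 ± 6.28 TPM, and Srd5a2, a steroid reductase, was lowest of the 8 genes of conversion and export at 0.393 ± 0.316 TPM. Of those 8 genes, 6 were expressed.

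The receptor's chaperones and coregulators were expressed without exception, 10 of 10 and 12 of 12, against 63.3% of protein-coding genes. The median of their mean levels was 546 and 47.0 TPM, against 7.54 TPM over protein-coding genes. Hsp90ab1 and Hsp90aa1, the forms of Hsp90, led at 8552 ± 409 and 4412 ± 461 TPM, and Stub1, a ubiquitin ligase of the complex, was lowest at 26.8 ± 1.74 TPM. Among the coregulators, Smarca4, the motor of a chromatin remodeller, and Ncoa3, a coactivator, were highest at 166.5 ± 5.14 and 110.4 ± 7.83 TPM, and Ncoa1 was lowest at 12.0 ± 1.88 TPM. These proteins also serve many other factors.

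Other glucocorticoid targets were expressed in 29 of 30 cases, with a median of 22.4 TPM, against 63.3% of protein-coding genes expressed by the same rule. Anxa1, an anti-inflammatory lipid-binding protein, stood at 483 ± 98.3 TPM, Ddit4, an inhibitor of mTOR signalling, at 442 ± 23.3 TPM and Pnmt at 0.245 ± 0.183 TPM. The targets tied to the liver differed from these in level: 5 of the 13 with a length were expressed, with a median of 1.06 TPM. The highest were Ass1 and Got1, enzymes that many other cells also make, at 503 ± 73.6 and 314 ± 48.2 TPM, while Cyp2b10 and G6pc1 had 0 counts. The difference between these lists was not tested.

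On the metal side, Mtf1 stood at 16.5 ± 0.900 TPM. All 7 genes of the list of this factor and its targets, Mt1 and Mt2 among them, were expressed. For this and the following counts the share over all protein-coding genes was 63.3%. Selenow, a selenoprotein, stood at 824 ± 40.3 TPM and Slc30a1, the zinc exporter that Mtf1 induces, at 32.5 ± 3.86 TPM. Of the zinc exporters and vesicle loaders (Slc30), 8 of 10 were expressed, led by Slc30a5 and Slc30a4 at 47.7 ± 5.99 and 39.4 ± 8.78 TPM. Of the zinc importers (Slc39), 11 of 14 were expressed, led by Slc39a1 at 141 ± 22.0 TPM and Slc39a6 at 66.5 ± 7.45 TPM. Slc30a8, known from pancreatic beta cells, and Slc39a12 had 0 counts. All 9 copper handling genes were expressed, from Atox1, a copper chaperone, at 354 ± 26.6 TPM and Sod1 at 272 ± 41.5 TPM to Atp7b, the copper pump of hepatocytes, at 2.53 ± 0.507 TPM.

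**Figure D4:**
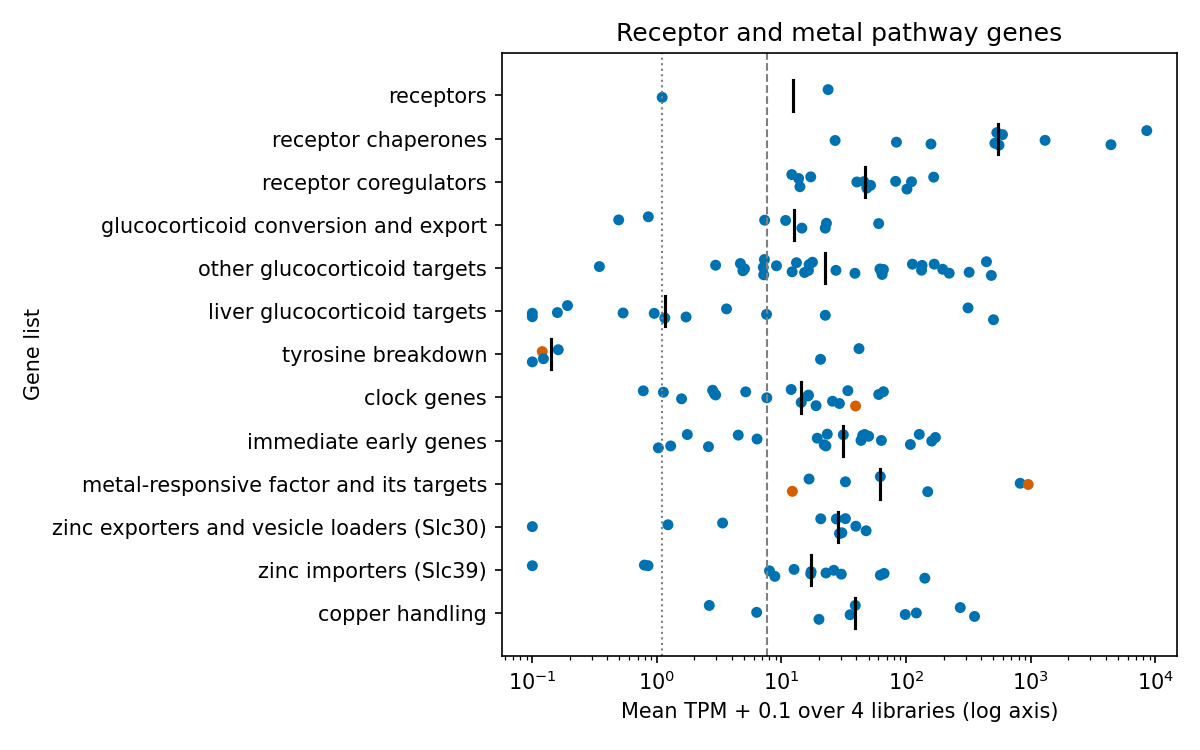
Mean TPM + 0.1 (log axis) of the genes in 13 lists around the receptor and metal pathways. Orange points are glucocorticoid targets and metallothioneins described one by one, short bars are list medians, the dashed line is the median of protein-coding genes (7.54 TPM) and the dotted line 1 TPM. Liver glucocorticoid targets and tyrosine breakdown are the only lists with a median below the dashed line.

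Several of these targets are also immediate early genes, which serum and handling induce within minutes. Of the 21 immediate early genes with a row, 18 were expressed, with Ier2 and Ccn1 the highest at 172 ± 13.4 and 161 ± 55.5 TPM and Nr4a3 the lowest at 0.928 ± 1.14 TPM. Their summed TPM was 805, 1234, 787 and 1169 in libraries 1 to 4. Of the 21, 13 were highest in library 4 and 6 in library 2, against 20.2% and 30.6% of all genes. Dusp1 was highest in library 2, as was the summed TPM, while Sgk1, Per1 and Tsc22d3 were highest in library 1.

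Differences between cultures were tested across 17398 genes by setting each library against the other 3 with edgeR's quasi-likelihood method, p-values being adjusted by Benjamini-Hochberg. The single library is assumed to vary like the rest. The filter on low counts kept 9 of the 10 genes, all but Tat. No gene passed the adjusted threshold of 0.05 for any library, so the background share called was 0% in each. Unadjusted p-values below 0.05 were found for 926 genes in library 1, 1284 in library 2, 274 in library 3 and 269 in library 4, of which 0, 2, 2 and 0 were among the 9. DESeq2 called 8, 69, 3 and 3 genes (0.046%, 0.397%, 0.0172% and 0.0172%), and none of the 9.

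Without the filter, edgeR called 0.836%, 1.19%, 0.00255% and 0.0153% of 39251 genes for libraries 1 to 4, and of the 10 genes Zbtb16 alone, for library 2. When 1 of the other libraries was left out, calls arose in a single setting for each library. Library 1 without library 3 had 12.4% of genes called, with Sgk1 higher and Zbtb16 lower among them (adjusted p = 0.0392 and 0.00405). Library 2 without library 4 had 14.4%, with Sgk1 lower and Zbtb16 higher (adjusted p = 0.00425 and 0.000244). Library 3 without library 1 had 7.35%, with Zbtb16 lower (adjusted p = 0.00205), and library 4 without library 2 had 7.8%, with none of the 10.

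**Figure D5:**
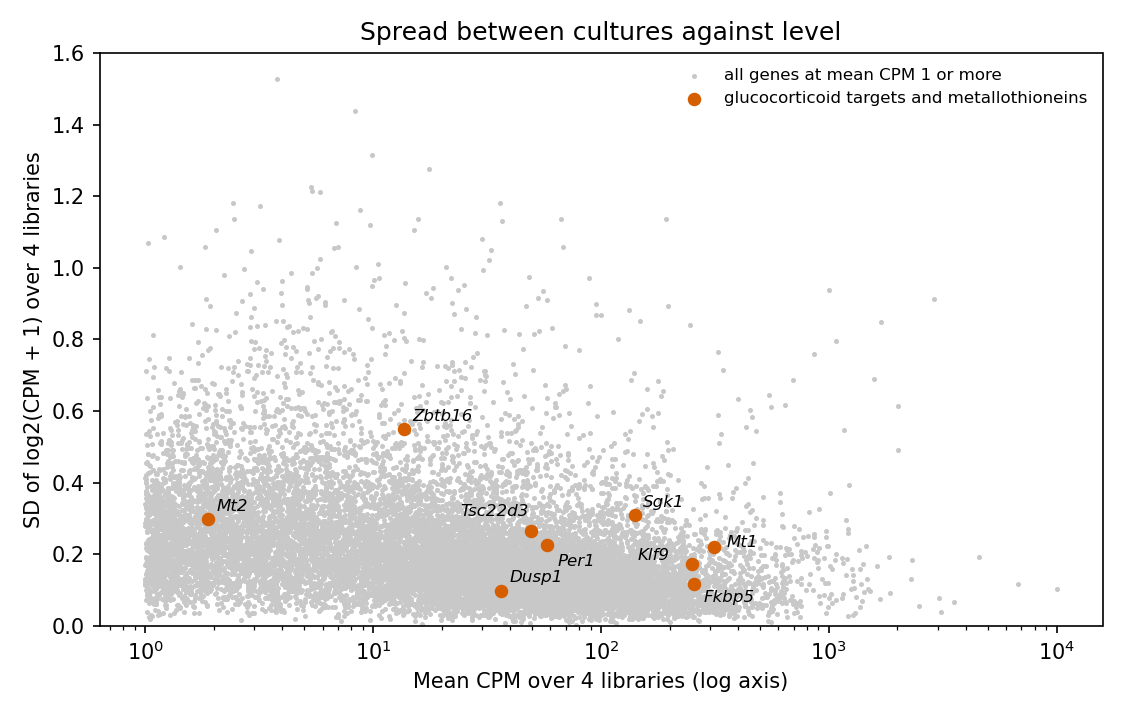
SD of log2(CPM + 1) over the 4 libraries against mean CPM (log axis) for 15194 genes at a mean of 1 CPM or more, of which 2 lie above the axis. Zbtb16 has the largest SD of the labelled genes at 0.549 and Dusp1 the smallest at 0.0982.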

How the data were processed

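Poly(A) RNA libraries without strand information were sequenced from both ends, per the labels' protocols. The authors deposited whole-number gene counts with no normalization. Per the submitters' processing notes, STAR, featureCounts and GRCm39 (mm39) were used. Their versions, the annotation release and the settings of the counting step were not given in the sources used here. Even numbers made up 60.0% to 62.6% of the counts from 1 to 8, a pattern of counting both ends of a pair.

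TPM were computed from the counts and exon-union lengths of GENCODE M21 (GRCm38), which matched 48825 of 78028 rows holding 98.6% to 98.8% of counts. Log values used log2(TPM + 0.1), which understates differences of low genes. Coordinates refer to GRCm38, not to the submitters' build. R 4.3.3, edgeR 4.0.16 (TMM, filterByExpr), DESeq2 1.42.0, Python 3.11.15, pandas 2.3.3 and SciPy 1.17.1 were used. The edgeR step was tested on simulated data.

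The genes, the 31 lists, the 11 pairs and the tests were chosen with earlier results of these data known. Named are every one of the 10 genes, both genes of each pair, the highest and lowest of each list, and the 3 genes closest to Mt1, Mt2 and the most variable of the 10. From these the text gives a selection. Some genes under this rule are not reported here. Outside this rule, Hgd, Slc30a1, Mtf1, Mt4, Cyp7a1, G6pc1 and Gm45774 were named after their values were seen. Alternatives were DESeq2, RLE factors, no filter, other thresholds and pseudocounts, CPM, leaving out each library and, added after seeing the data, principal transcript lengths. The cultures were grown independently, per the labels.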

Additional observations from a re-analysis of the deposited data

How the results depend on the processing

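Expressed were 9 of the 10 genes under each threshold (0.5 and 5 TPM, 1 CPM), each left-out library and both length choices. Of the 10 pairs compared, 9 had a single order over the libraries, as with a pseudocount of 1 TPM, in CPM and without library 2, 3 or 4, and 10 had one with principal transcript lengths and without library 1. The mean log2 ratio of Hsd11b2 to Hsd11b1 reversed in CPM (-0.84) and with principal transcript lengths (-1.02). Principal transcript lengths moved the level of 7 of the 10 genes by more than 1 SD and placed Fkbp5 (167 TPM) above Sgk1 (144 TPM) and Klf9 (141 TPM). With DESeq2, 8, 69, 3 and 3 genes were called for libraries 1 to 4, and with no filter on low counts 328, 469, 1 and 6, in place of 0. RLE factors left each count at 0. Leaving out 1 library gave 0 to 2206 calls for library 1, 0 to 2552 for library 2, 0 to 1303 for library 3 and 0 to 1386 for library 4. The highest counts arose without library 3, 4, 1 and 2 in that order, when the spread comes from the 2 libraries left. Among the 10 genes, these fits called Zbtb16 for libraries 1, 2 and 3 and Sgk1 for libraries 1 and 2 (edgeR, adjusted p from 0.000244 to 0.0392). No paired analysis was possible because the 4 libraries form a single group. Tat, at 2 counts or fewer, was below the threshold of 1 TPM, and how far below is limited by depth.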
